A study of Mus musculus with 2 samples.

Results

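The genes described here encode the killing machinery of cytotoxic lymphocytes and the secreted products that go with it. There are 10 of them among the 27933 gene symbols of the deposited tables, taken by name: 4 granzymes (Gzma, Gzmb, Gzmk, Gzmm), perforin (Prf1), the granule membrane protein Nkg7, the cathepsin Ctsw, the cystatin Cst7, the chemokine Ccl5 and interferon gamma (Ifng). All 10 had 1 entry each in both tables and at least 1 UMI (a unique molecular identifier, 1 counted RNA molecule) in both libraries. Droplet single-cell libraries were made from lymph nodes of mice 6-8 weeks old that carried a heart graft. One library came from the allogeneic group, in which the donor was C57BL/6 and the recipient Balb/c. The other came from the syngeneic group, in which donor and recipient were both Balb/c. Each group is 1 library, so no difference between them has a replicate check, no p-value is given, and the condition cannot be told apart from the library. The number of animals per library and the day after grafting were not given in the sources used here.

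Cytotoxic T cells and natural killer (NK) cells store granzymes, which are serine proteases, in lysosome-like granules together with perforin. On contact with a target the granules fuse with the cell membrane, perforin forms pores in the target membrane, and granzymes enter and cleave proteins that lead to cell death. Cathepsin W and cystatin F (the product of Cst7) are papain-family protease and protease inhibitor of the same compartments, Nkg7 takes part in granule release, and Ccl5 and interferon gamma are secreted to draw in and activate other cells. In transplantation these genes are known as marks of effector lymphocytes that attack the graft, whereas in a lymph node most lymphocytes are resting.

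The allogeneic library held 8415043 UMIs over 3500 barcodes, of which 2106 were kept (200 genes or more, mitochondrial UMIs no higher than 10%), with a median of 3147 UMIs. The syngeneic library held 46486632 UMIs over 7967 barcodes, of which 7957 were kept, with a median of 4917 UMIs. Haemoglobin RNA made up 9.11% of UMIs in the allogeneic and 0.114% in the syngeneic library. The barcode lists begin at 150 UMIs in one library and 3447 in the other, and 66 barcode sequences occur in both. Without those 66, the 7 summed ratios given below stayed within their counting intervals.

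Cells were put into marker classes with none of the 10 genes, and every class name here means "like" that cell type. The fixed-threshold gates asked for at least 1 Cd3 UMI for a T cell, and for at least 2 UMIs of Il2rb, Cxcr3, Eomes and Tbx21 for memory-like CD8 T cells. Naive-like CD8 T cells had 0 UMIs of those 4 genes and at least 1 of Lef1, Igfbp4 or Dapl1. Under these gates the memory-like class had 62 allogeneic and 607 syngeneic cells, the naive-like class 318 and 1188, CD4 T-like cells 314 and 1125, NK-like cells 2 and 10, and B-like cells 222 and 364. A few cells rich in NK or dendritic markers carried 1 or 2 Cd3 UMIs and were counted as T cells by these gates. A second set, the marker-majority gates, was therefore chosen after seeing the data: it gives a cell to the lineage whose markers have at least 2 UMIs and at least 2 times the UMIs of every other lineage's markers. It gave 66 and 852 memory-like, 328 and 1583 naive-like, 315 and 1507 CD4 T-like, 5 and 29 NK-like, 341 and 1302 B-like and 19 and 53 dendritic-like cells. Values are from the fixed-threshold gates unless the marker-majority gates are named. The fixed-threshold gates left 308 allogeneic (14.6% of kept) and 2451 syngeneic cells (30.8%) in no class, called ungated. Their medians were 1833.5 and 5571 UMIs. The marker-majority gates left 249 (11.8%) and 332 (4.17%) ungated. CD8 T cells went from 498 to 513 in the allogeneic and from 2408 to 3258 in the syngeneic library. How much this unequal loss adds to the differences between libraries was not tested. Levels are UMIs per 1000000 UMIs of the class (CPM), and brackets give exact 95% intervals that cover counting error only. The shares of memory-like cells among CD8 T cells, 12.4% (9.68 to 15.7) and 25.2% (23.5 to 27.0), rest on a UMI gate at unequal depth. Thinned to 2000 UMIs per cell before gating they were 3.92% (2.26 to 6.29) and 6.74% (5.83 to 7.74), with 444 shallower allogeneic cells left out.

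The starts of 4 of these genes are shown because the text below turns on where they were read. These places were NK-like cells for Gzma and, in the allogeneic library, for Gzmb. They were CD8 T and NK-like cells for Nkg7 and, in the syngeneic library, memory-like CD8 T cells for Gzmk. Each run is the 250 bases before the RefSeq transcription start, 5′ to 3′ on the gene's own strand, from the promoter windows of build GRCm38.p6. Capitals mark the 7-base core of the Runx motif, TGTGGTT or its reverse complement AACCACA, or of the T-box motif, GGTGTGA or TCACACC. Runx3 and the T-box factors Tbx21 and Eomes are regulators of cytotoxic lymphocytes. The windows lie at chr13:113100982-113101231, minus strand for Gzma, at chr14:56262335-56262584, minus strand for Gzmb, at chr7:43436888-43437137, plus strand for Nkg7 and at chr13:113180966-113181215, minus strand for Gzmk.
Gzma: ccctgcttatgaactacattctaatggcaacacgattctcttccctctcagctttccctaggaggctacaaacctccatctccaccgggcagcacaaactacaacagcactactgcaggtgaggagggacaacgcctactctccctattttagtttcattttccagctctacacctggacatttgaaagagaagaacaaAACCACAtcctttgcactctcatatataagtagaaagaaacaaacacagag
Gzmb: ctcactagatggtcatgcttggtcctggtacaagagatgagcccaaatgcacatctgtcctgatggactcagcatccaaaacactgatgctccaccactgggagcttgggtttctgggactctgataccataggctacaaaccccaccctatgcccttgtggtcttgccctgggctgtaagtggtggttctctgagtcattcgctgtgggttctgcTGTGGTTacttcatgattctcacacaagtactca
Nkg7: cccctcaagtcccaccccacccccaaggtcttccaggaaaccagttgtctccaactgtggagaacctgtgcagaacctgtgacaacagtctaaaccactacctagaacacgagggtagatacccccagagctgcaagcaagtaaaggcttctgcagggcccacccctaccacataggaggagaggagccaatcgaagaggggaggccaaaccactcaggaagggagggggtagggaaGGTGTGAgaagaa
Gzmk: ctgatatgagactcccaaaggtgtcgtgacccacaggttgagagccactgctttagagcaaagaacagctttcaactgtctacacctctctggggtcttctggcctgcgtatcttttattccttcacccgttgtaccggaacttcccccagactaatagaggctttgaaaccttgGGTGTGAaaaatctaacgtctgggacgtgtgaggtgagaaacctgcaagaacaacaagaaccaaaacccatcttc
The Runx letters began 51 bases before the start of Gzma, on the opposite strand, and 34 bases before the start of Gzmb. The T-box letters began 13 bases before the start of Nkg7 and 75 bases before that of Gzmk. Windows were found for 8 members, 9 windows in all, and Ccl5 and Ctsw had none in the table. T-box letters were in the windows of 3 members (Nkg7, Gzmk and Gzmm, in the latter 189 bases before the start of its second window) and Runx letters in those of 2. Of all 32851 windows of this length, 3.33% held the T-box letters and 4.40% the Runx letters. A match describes letters and shows no binding, and the windows of Prf1, Cst7 and Ifng held neither motif.

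All 10 are protein-coding genes, given here by their GENCODE M21 spans on mm10. Gzma (chr13:113093825-113100981) and Gzmk (chr13:113171608-113225908) are both on chromosome 13, and Gzmb lies at chr14:56258838-56262260. Gzmm (chr10:79689020-79695261), Prf1 (chr10:61297833-61304680) and Ifng (chr10:118441046-118445892) are on chromosome 10. Nkg7 lies at chr7:43437073-43438249, Ctsw at chr19:5465043-5468507, Cst7 at chr2:150570415-150578944 and Ccl5 at chr11:83525778-83530518. By these spans the T-box letters of Nkg7, the whole Gzmk window and the second Gzmm window lie inside the genes. Their distances above therefore hold for the RefSeq starts only. A 3′ kit reads transcripts near their end and tells few isoforms apart.

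Most Gzma and Gzmb UMIs came from very few cells. In the allogeneic library 1 NK-like cell held 296 of the 519 Gzma UMIs and 167 of the 308 Gzmb UMIs were also in 1 NK-like cell. The 10 richest cells held 85.4% of the UMIs of Gzma and 85.4% of those of Gzmb, but 9.44% of those of Nkg7 and 6.44% of those of Ctsw. In the syngeneic library the 10 richest cells held 58.2% of 2143 Gzma UMIs and 9 of them were NK-like by the marker-majority gates. The corresponding shares were 50.7% of 495 Gzmb UMIs, 57.1% of 77 Gzmk UMIs and 12.5% of 778 Gzmm UMIs. Gzma and Gzmb totals thus depend on few cells, while Nkg7, Ctsw, Cst7, Prf1 and, in the syngeneic library, Gzmm (388 cells) were spread over many. Ifng was nearly silent, with 7 UMIs in 6 allogeneic cells and 50 UMIs in 32 syngeneic cells, 13 of them in 1 cell of the naive-like class.

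**Figure D1:**
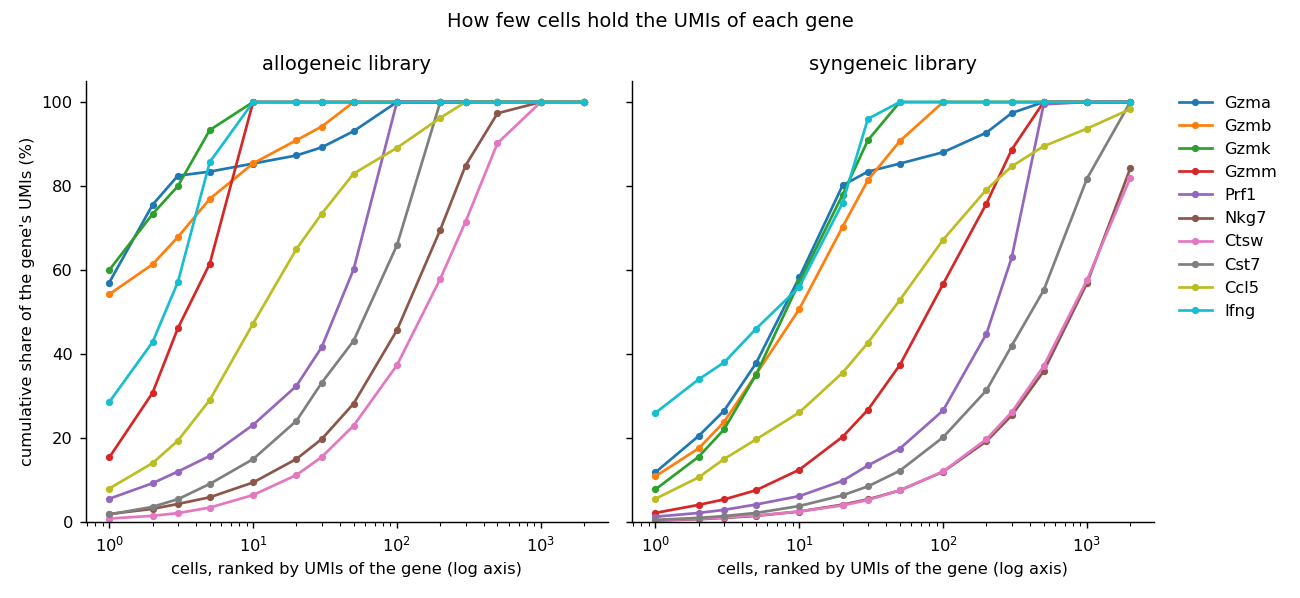
Cumulative share of each gene's UMIs (%, y axis) against the number of cells taken in order of their UMIs of that gene (x axis, log scale), 1 panel per library and 1 line per gene. The lines of Gzma and Gzmb pass 85% at 10 cells in the allogeneic library, and those of Nkg7 and Ctsw stay below 10% there.

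The class of the cells that held the UMIs differed from gene to gene. By the marker-majority gates, NK-like cells held 82.5% of the allogeneic and 64.7% of the syngeneic Gzma UMIs. With the fixed-threshold gates, which leave fewer cells in the NK-like class, the shares were 75.5% and 8.63%. By the marker-majority gates NK-like cells also held 63.0% of the Gzmb UMIs in the allogeneic library but 11.7% in the syngeneic library, where CD4 T-like cells with a Foxp3 UMI held 23.4%. With the fixed-threshold gates the NK-like shares of Gzmb were 61.4% and 0.404%, and the syngeneic Foxp3-seen share 6.87%. By the marker-majority gates CD8 T cells held 85.1% and 83.1% of the Nkg7 UMIs, naive-like cells alone 46.5% and 27.5%, and CD8 T cells 65.0% and 75.4% of the Ctsw UMIs. Gzmm, granzyme M, had 86.6% of its syngeneic UMIs in CD8 T cells, and 62.6% of all its syngeneic UMIs were in the memory-like class (59.0% and 40.2% with the fixed-threshold gates). Gzmk, granzyme K, had 68.8% of its 77 syngeneic UMIs in the memory-like class (44.2% with the fixed-threshold gates). Ccl5 was also read in dendritic-like cells. These, 53 of 7957 kept cells, held 39.8% of its syngeneic UMIs by the marker-majority gates, and 19 of 2106 held 15.4% in the allogeneic library. With the fixed-threshold gates, under which 7 syngeneic and 16 allogeneic cells are dendritic-like, the shares were 1.53% of the syngeneic and 4.49% of the allogeneic UMIs, and 33.8% of the syngeneic Ccl5 UMIs were in ungated cells.

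**Figure D2:**
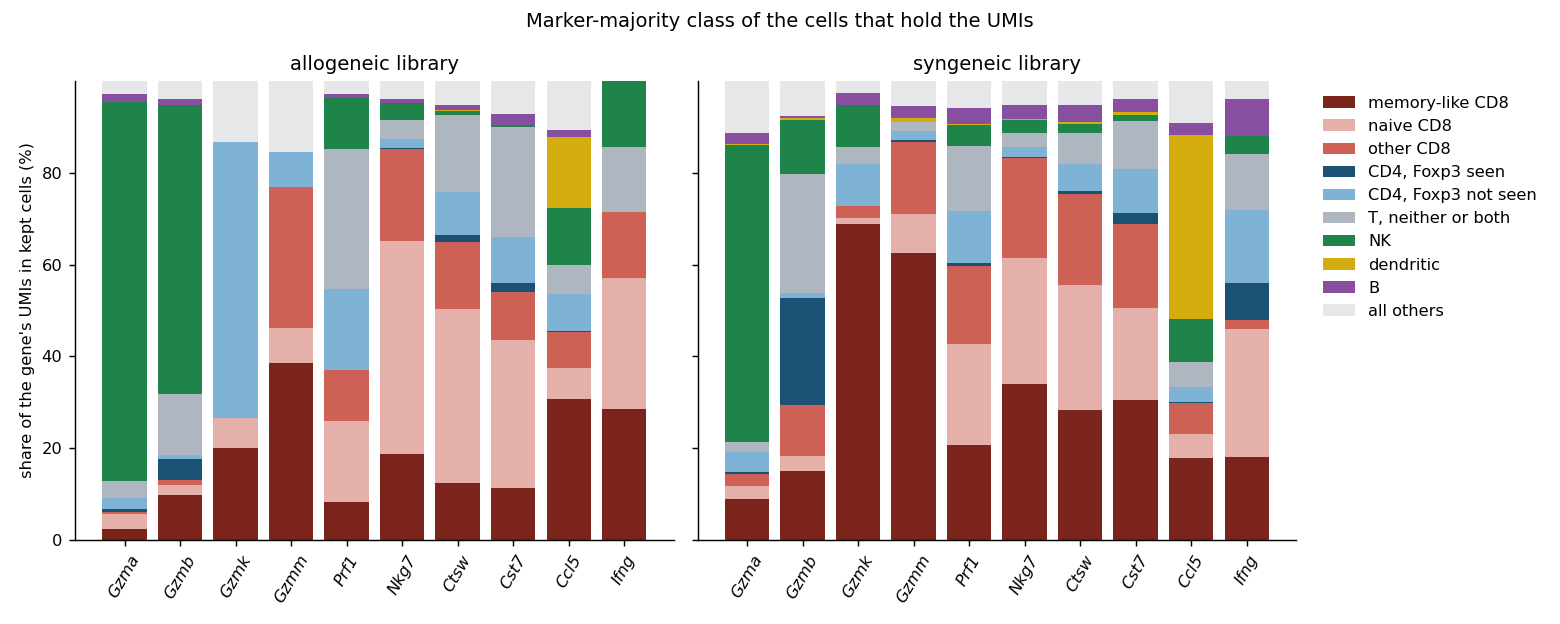
Share of each gene's UMIs in kept cells (%, y axis) by marker-majority class (colours), for the 10 genes (x axis) in each library. Gzma is mostly in NK-like cells (82.5% and 64.7%), Nkg7 mostly in CD8 T cells (85.1% and 83.1%), and dendritic-like cells hold 39.8% of the syngeneic Ccl5 UMIs.

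Some UMIs of these genes were found in cells that should lack them. B-like cells carried Nkg7 at 20.8 CPM in the allogeneic and 48.2 CPM in the syngeneic library, Ctsw at 11.3 and 25.3 CPM, and Ccl5 at 51.0 and 70.0 CPM. After thinning, 4.03% (1.49 to 8.56) of 149 allogeneic and 7.69% (5.17 to 10.9) of 364 syngeneic B-like cells had an Nkg7 UMI. The B-like CPM was higher in the syngeneic library for these 3 genes, though the thinned Nkg7 intervals overlapped. Gzma there was 18.9 CPM with 29 of 33 UMIs in 1 cell. The marker-majority gates call 2 of these syngeneic cells NK-like, and these held 20 of the 84 Nkg7, 11 of the 44 Ctsw and 14 of the 122 Ccl5 UMIs. In the allogeneic class 13 of the 27 Ccl5 UMIs were in 1 cell. The B-like levels thus hold more than free RNA alone. A level near these is read here as background. Gzma in naive-like CD8 T cells was such a level, 11.2 CPM (15 UMIs) against 11.3 CPM (6 UMIs) in B-like cells of the allogeneic library. So was Gzmb there, with 5.23 CPM (7 UMIs) against 5.66 CPM (3 UMIs). Counts this small could not show a modest difference between the classes.

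Nkg7 was high in memory-like and in naive-like CD8 T cells of both libraries. CD8 T cells as a whole had 758 against 839 CPM (log2 -0.15, -0.22 to -0.07), and 814 against 783 CPM with the marker-majority gates (log2 0.06, -0.02 to 0.13). Memory-like cells had 1114 CPM in the allogeneic and 1124 CPM in the syngeneic library, a log2 ratio of -0.01 (-0.17 to 0.14). Naive-like cells had 675 and 636 CPM, a log2 ratio of 0.09 (-0.02 to 0.19), and 61.7% of 300 and 59.3% of 1188 thinned naive-like cells had at least 1 UMI. These naive-like levels were 32.5-fold and 13.2-fold those of B-like cells of the same library. Both libraries overlapped in their intervals in both classes. With the marker-majority gates the naive-like values were 755 and 616 CPM, and the interval of the log2 ratio, 0.29 (0.19 to 0.39), no longer reached 0. CD4 T-like cells had 43.4 and 42.2 CPM, against 20.8 and 48.2 CPM in B-like cells. In NK-like cells of the marker-majority gates the levels were 4251 and 3436 CPM, and 6318 and 2300.3 CPM with the fixed-threshold gates.

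Ctsw, which encodes a cathepsin of CD8 T and NK cells, was higher in naive-like CD8 T and CD4 T-like cells of the allogeneic library. Naive-like CD8 T cells had 284 against 216 CPM (log2 0.40, 0.23 to 0.57). Memory-like cells had 372 against 314 CPM (log2 0.24, -0.03 to 0.51), an interval that reached 0. The CD8 T cells in neither class had 137 Ctsw UMIs of 533701 in the allogeneic against 918 of 3400911 in the syngeneic library, which was not higher. The difference was widest in CD4 T-like cells, with 93.8 against 51.9 CPM, a 1.81-fold ratio (log2 0.86, 0.52 to 1.18). Of the thinned CD4 T-like cells, 19.9% (15.5 to 24.9) of 297 and 9.87% (8.19 to 11.8) of 1125 had a Ctsw UMI. B-like cells had 11.3 against 25.3 CPM. Ctsw overlaps Fibp on the other strand, and whether counting used strand was not given in the sources used here.

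Prf1, the pore-forming protein, was low in T cells, with 0 and 3 UMIs in B-like cells and its highest levels in NK-like cells. In CD8 T cells the 2 libraries gave 17.7 and 18.2 CPM, a log2 ratio of -0.04 (-0.57 to 0.45). Memory-like cells had 27.2 and 23.3 CPM and naive-like cells 13.4 and 14.1 CPM, with overlapping intervals in each class. CD4 T-like cells had 17.4 CPM (20 UMIs in 18 of 314 cells) against 7.66 CPM (43 UMIs in 43 of 1125 cells), a 2.27-fold ratio (log2 1.18, 0.34 to 1.98). No cell there held more than 2 Prf1 UMIs, and without the richest cell of each library the log2 ratio was 1.07 (0.18 to 1.89). In the allogeneic library all 20 of these UMIs were in cells with no Foxp3 UMI.

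Cst7, cystatin F, an inhibitor of the cathepsins that activate granzymes, was lower in CD8 T cells of the allogeneic library, 49.0 against 64.6 CPM (log2 -0.40, -0.70 to -0.11). In the memory-like and naive-like classes the difference was smaller than the counting error: memory-like cells had 63.6 against 88.9 CPM (log2 -0.48, -1.19 to 0.15) and naive-like cells 50.03 against 43.9 CPM (log2 0.19, -0.22 to 0.58). The CD8 T cells in neither class had 37.5 (22.9 to 57.9) against 72.3 CPM (63.6 to 82.0), intervals that did not overlap. CD4 T-like cells had 13.0 against 24.4 CPM (log2 -0.91, -1.78 to -0.13), which became 22.4 against 27.8 CPM (log2 -0.31, -0.95 to 0.28) with the marker-majority gates.

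Gzmm was lower in CD8 T cells of the allogeneic library with both sets of gates. Granzyme M is a granzyme that cleaves after methionine and leucine. CD8 T cells had 10 UMIs (4.54 CPM) against 459 (34.7 CPM), a ratio 7.66-fold lower with log2 -2.94 (-4.01 to -2.04). Memory-like cells had 5 UMIs (15.1 CPM) against 313 (80.0 CPM), 5.28-fold lower with log2 -2.40 (-4.03 to -1.16). Naive-like cells had 1 UMI against 52, or 0.747 against 8.82 CPM. In memory-like cells thinned to 2000 UMIs, 1 of 58 allogeneic cells (1.72%, 0.0436 to 9.24) and 63 of 607 syngeneic cells (10.4%, 8.07 to 13.1) had a Gzmm UMI, so these share intervals overlapped. The marker-majority gates gave the same picture, with log2 -2.54 (-4.17 to -1.31) in memory-like cells and -2.96 (-4.02 to -2.07) in CD8 T cells. Without the richest cell of each library the log2 ratio was -3.20 (-4.42 to -2.21) in CD8 T cells and -3.02 (-5.31 to -1.46) in memory-like cells. NK-like cells of the marker-majority gates had 0 and 1 Gzmm UMI. The difference was also present over all kept cells, 1.69 CPM (13 UMIs) against 16.8 CPM (778 UMIs). Memory-like cells made up 2.94% of the allogeneic and 7.63% of the syngeneic kept cells. The values over all kept cells and over CD8 T cells therefore mix level with class make-up.

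The values of Gzma and Gzmb hung on a handful of cells. Granzyme A and granzyme B are the most studied granzymes of killer cells, and granzyme B cleaves caspases. For Gzma, memory-like CD8 T cells had 36.3 CPM (12 UMIs) against 135 CPM (528 UMIs), a log2 ratio of -1.89 (-2.85 to -1.08). In the syngeneic library 382 of these 528 UMIs were in 3 cells that the marker-majority gates call NK-like, and with those gates the levels were 31.6 and 30.2 CPM, log2 0.07 (-0.91 to 0.90). The fixed-threshold difference of Gzma in memory-like cells thus rests on 3 cells. NK-like cells themselves, by the marker-majority gates, had 22743 CPM (428 UMIs, 3 of 5 cells) against 9290 CPM (1387 UMIs, 17 of 29 cells). With the fixed-threshold gates they had 36967 CPM in 2 cells against 4053 CPM in 10 cells. Without the richest cell of each library the marker-majority levels became 10645 and 8172 CPM.

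Gzmb was higher in the allogeneic library in both memory-like CD8 T cells and NK-like cells. Memory-like cells had 90.8 CPM (30 UMIs) against 20.7 CPM (81 UMIs), 4.39-fold higher with log2 2.13 (1.48 to 2.75), and 79.0 against 11.6 CPM with the marker-majority gates. Only 5 of 62 and 13 of 607 of these cells held a Gzmb UMI, and 1 allogeneic cell held 20 of the 30. Without the richest cell of each library the memory-like log2 ratio was 1.33 (0.18 to 2.33), and 2.05 (0.89 to 3.07) with the marker-majority gates. NK-like cells of the marker-majority gates had 10309 CPM in 5 cells against 388 CPM in 29 cells, and 2177 against 303 CPM without the richest cell of each. With the fixed-threshold gates they had 189 UMIs in 2 cells against 2 UMIs in 10 cells. After thinning, 2 of 58 and 9 of 607 memory-like cells had a Gzmb UMI, too few for the shares to be compared. In CD4 T-like cells the fixed-threshold gates gave 17.4 against 6.77 CPM (log2 1.36, 0.50 to 2.18), but the marker-majority gates gave 14.7 and 14.7 CPM (log2 -0.01, -0.83 to 0.73), and without the richest cell of each library the first became 0.70 (-0.66 to 1.91).

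NK-like cells of the marker-majority gates also carried Prf1, Nkg7 and Ccl5 above the levels of CD8 T cells in both libraries, although the allogeneic class holds 5 cells. Prf1 had 638 CPM (12 UMIs) against 167 CPM (25 UMIs), log2 1.93 (0.80 to 2.98), and 1.32 (-0.29 to 2.69) without the richest cell of each library. Ccl5 had 9246 against 13637 CPM (log2 -0.56, -0.79 to -0.34), but 16032 against 9486 CPM with the fixed-threshold gates (log2 0.76), so no direction is given. All 29 syngeneic NK-like cells but 3 of the 5 allogeneic ones, by the marker-majority gates, held a Ccl5 UMI. Nkg7 was seen in 5 of 5 and 28 of 29 of these cells. With the fixed-threshold gates the class holds 2 and 10 cells and its members summed gave a log2 ratio of 2.196, against 0.78 with the marker-majority gates, so the size of the difference rests on which few cells are called NK-like.

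CD4 T-like cells with a Foxp3 UMI, which include regulatory T cells, carried Gzmb in both libraries. Granzyme B is one of the means by which regulatory T cells can act on other lymphocytes. In the allogeneic library cells with Foxp3 had 120.0 CPM (14 UMIs in 2 of 32 cells) and those without had 5.80 CPM (6 UMIs in 282 cells), a 20.7-fold ratio (log2 4.37, 2.90 to 6.04). Of the 14 UMIs 12 were in 1 cell. The syngeneic values were 91.6 CPM (34 UMIs in 5 of 58 cells) and 0.763 CPM (4 UMIs in 1067 cells), a 120.0-fold ratio (log2 6.91, 5.42 to 8.86). The marker-majority gates gave 81.2 against 143 CPM in the Foxp3-seen cells, with 14 UMIs in 2 of 38 allogeneic and 116 UMIs in 10 of 88 syngeneic cells. The ratio between libraries in these cells was log2 0.39 (-0.62 to 1.33) with the fixed-threshold gates and -0.81 (-1.73 to -0.01) with the others. Without the richest cell of each library these became -1.63 (-4.77 to 0.41) and -3.15 (-6.22 to -1.26), so no direction is given. Among the other members Cst7 was higher in syngeneic cells with Foxp3 than without, 53.9 against 22.3 CPM (log2 1.27, 0.51 to 1.96). Prf1 was at 0 and 1 UMI in the Foxp3-seen cells.

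Gzmk was detected in few cells. Memory-like cells had 9.08 CPM (3 UMIs) and 8.69 CPM (34 UMIs), levels at which a difference was not detectable. CD4 T-like cells had 9 against 3 UMIs, and all 9 allogeneic UMIs came from 1 cell. Gzmk overlaps Esm1 on the other strand.

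Ccl5, a chemokine that attracts T cells and monocytes and that memory CD8 T cells store ready-made as RNA, differed between libraries in opposite directions in the 2 CD8 classes. Memory-like cells had 1411 CPM (466 UMIs) in the allogeneic against 817 CPM (3198 UMIs) in the syngeneic library, 1.73-fold higher with log2 0.79 (0.64 to 0.93). Naive-like cells had 69.4 CPM (93 UMIs) against 278 CPM (1637 UMIs), log2 -1.999 (-2.32 to -1.70). The libraries did not overlap within counting error in either class. In the syngeneic naive-like class 602 of the 1637 UMIs were in 4 cells that the marker-majority gates call dendritic-like, and with those gates the values were 70.9 against 137 CPM, log2 -0.95 (-1.28 to -0.65). The memory-like values were then 1137 and 604 CPM, log2 0.91 (0.77 to 1.06). B-like cells had 25.4 and 71.6 CPM of Ccl5 under the same gates, so the background was also lower in the allogeneic library. Whether free Ccl5 RNA accounts for part of the naive-like difference was not tested.

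Dendritic-like cells of the marker-majority gates had 4176 CPM of Ccl5 in 19 allogeneic and 16379 CPM in 53 syngeneic cells, with medians of 1413 and 9448 UMIs per cell. The richest Ccl5 cell of the whole series was one of the syngeneic ones, with 1193 UMIs. In CD4 T-like cells the fixed-threshold gates gave 102 against 228 CPM (log2 -1.16, -1.45 to -0.89) and the marker-majority gates 99.2 against 93.2 CPM (log2 0.09, -0.21 to 0.37). Of the 1278 syngeneic UMIs, 485 were in 3 dendritic-like cells, and 85 of the 117 allogeneic ones were in 1 cell. Without the richest cell of each library the CD4 T-like log2 ratios were -2.64 (-3.20 to -2.14) and -1.56 (-2.14 to -1.03), so both the size and the direction of the Ccl5 difference there rest on few cells.

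Ifng had 3 UMIs in allogeneic and 20 in syngeneic CD8 T cells, 1.36 and 1.51 CPM, with a log2 ratio of -0.15 (-2.55 to 1.60). CD4 T-like cells had 0 and 7 UMIs, where 0 UMIs in this class allow up to 2.61 CPM. Ifng overlaps the uncharacterised transcript Gm49751 on the same strand. A difference in this cytokine was not detectable at this depth.

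**Figure D3:**
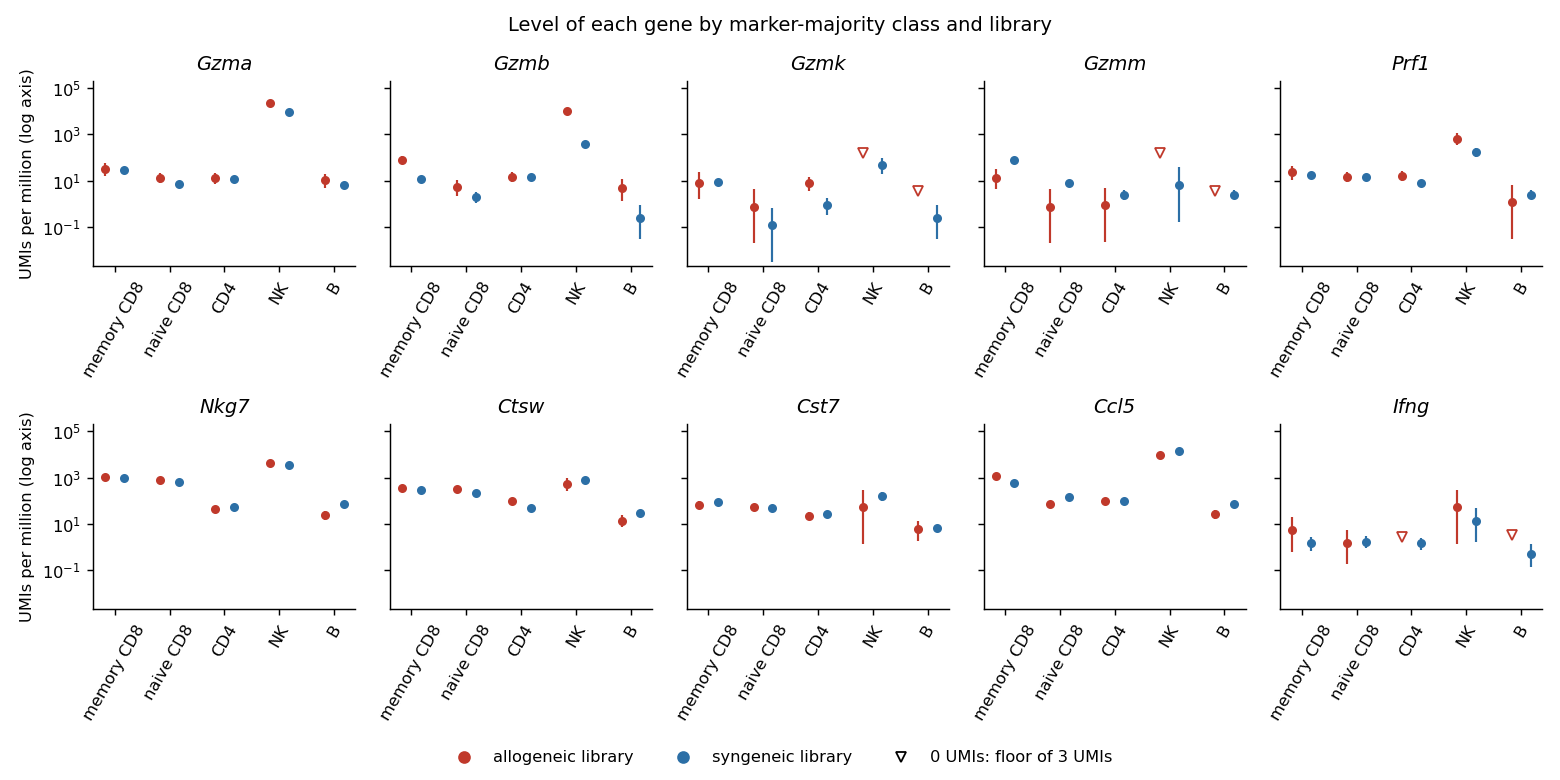
Level of each gene (CPM, log axis) in 5 marker-majority classes of the allogeneic (red) and syngeneic (blue) library, with 95% counting intervals, and an open triangle at the floor of 3 UMIs where none was counted. NK-like cells are highest for Gzma (22743 and 9290 CPM), and Gzmm in memory-like CD8 T cells is 13.2 CPM in the allogeneic against 76.5 CPM in the syngeneic library.

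Counted over the list, the members did not stand on one side. In memory-like CD8 T cells 9 of the 10 genes had at least 20 UMIs over both libraries: 5 were higher and 4 lower in the allogeneic library, with a median log2 ratio of 0.06 against 0.03 over all 8258 genes tested. Gzmb was the 1 gene at least 2-fold higher and Gzma and Gzmm were the 2 at least 2-fold lower, against 9.72% of all genes that were 2-fold higher and 8.99% that were 2-fold lower. In naive-like cells 7 genes were tested, 0 were at least 2-fold higher (8.28% of all genes) and 2, Gzmm and Ccl5, at least 2-fold lower (5.87% of all genes). In CD4 T-like cells 7 were tested, with Gzmb and Prf1 at least 2-fold higher (9.63% of all genes) and Ccl5 at least 2-fold lower (5.51% of all genes). Counts of 0 to 2 genes are too small to be set apart from those shares. The shares are of the fixed-threshold gates, and none is given for the marker-majority gates. With the marker-majority gates Gzma in memory-like cells, Ccl5 in naive-like cells and Gzmb and Ccl5 in CD4 T-like cells were no longer past 2-fold, while Gzmb in naive-like cells (7 against 16 UMIs, log2 1.44, -0.08 to 2.80) then counted as tested and past it, and so did Gzmm in CD4 T-like cells (1 against 20 UMIs). Summed over the 10 genes, memory-like cells had 3146 against 2614 CPM, log2 0.27 (0.17 to 0.36), and CD8 T cells as a whole 1456 against 1782 CPM, log2 -0.29 (-0.34 to -0.24). With the marker-majority gates the CD8 T cell sum was 1524 against 1503 CPM, log2 0.02 (-0.03 to 0.07). The sums of naive-like cells, log2 -0.12 (-0.20 to -0.04), and of CD4 T-like cells, -0.30 (-0.47 to -0.14), also changed sign with those gates, to 0.24 and 0.26.

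**Figure D4:**
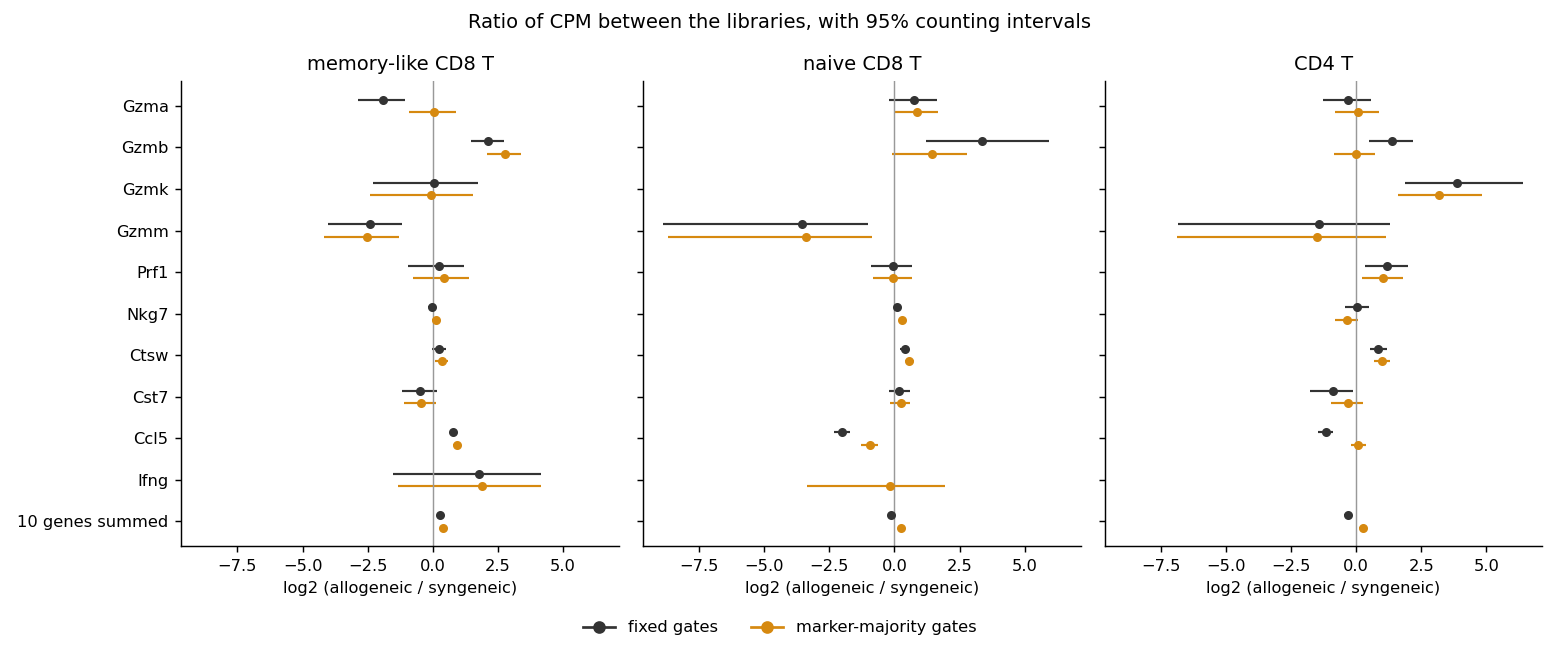
Log2 ratio of CPM, allogeneic over syngeneic (x axis), for each gene and for the 10 genes summed (y axis) in memory-like CD8 T, naive-like CD8 T and CD4 T-like cells. Points are ratios and bars 95% counting intervals, in black for the fixed-threshold and in orange for the marker-majority gates. In memory-like cells Gzmm lies left of 0 with both gates (-2.40 and -2.54), Gzmb right of 0 (2.13 and 2.76), and Gzma left of 0 with 1 of them (-1.89 and 0.07).

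Within each library, where both classes share the preparation, the members were higher in memory-like than in naive-like CD8 T cells. In the allogeneic library all 7 members tested were higher (51.5% of all genes), 4 of them at least 2-fold (3.95% of all genes), and the sum was 3146 against 1110 CPM, 2.83-fold with log2 1.502 (1.39 to 1.62). In the syngeneic library 9 of 10 were higher, against 42.2% of all genes (Ifng, with 7 and 13 UMIs, was not), 6 at least 2-fold (2.43% of all genes), and the sum was 2614 against 1205 CPM, 2.17-fold with log2 1.12 (1.07 to 1.16). Ccl5 gave 20.3-fold (log2 4.35, 4.02 to 4.68) in the allogeneic and 2.94-fold (log2 1.56, 1.47 to 1.64) in the syngeneic library, or 16.0-fold and 4.40-fold with the marker-majority gates. Gzmm was 9.07-fold higher in syngeneic memory-like cells (log2 3.18, 2.75 to 3.63). Gzmk, with 34 against 0 UMIs there, was at least 17.1-fold higher, taking 3 UMIs in the naive-like class as the floor. Nkg7 was 1.65-fold and 1.77-fold higher and Ctsw 1.31-fold and 1.46-fold. For Gzma the syngeneic ratio of 20.4-fold became 4.24-fold with the marker-majority gates.

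Several members in 1 cell were common in memory-like CD8 T cells of both libraries. After thinning to 2000 UMIs, at least 2 of the 10 genes were seen in 74.1% (61.0 to 84.7) of 58 allogeneic and 65.9% (62.0 to 69.7) of 607 syngeneic memory-like cells. Naive-like cells reached 41.3% (35.7 to 47.1) of 300 and 36.8% (34.0 to 39.6) of 1188. At least 3 genes were seen in 32.8% (21.0 to 46.3) and 27.8% (24.3 to 31.6) of the memory-like cells and in 8.00% (5.19 to 11.7) and 7.58% (6.14 to 9.23) of the naive-like cells. The intervals of the libraries overlapped in each of these pairs. B-like cells with at least 2 of the genes made up 0.671% (0.0170 to 3.68) of 149 and 1.10% (0.300 to 2.79) of 364.

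Other genes of the pathway were read in memory-like CD8 T cells from lists of known pathway genes. Of 14 genes of granule storage and protease activation 13 were tested, 9 higher and 4 lower in the allogeneic library, 3 and 1 of them at least 2-fold, with a median log2 ratio of 0.34 against 0.03 over all genes. For these and the next lists in memory-like cells, 51.9% of all genes were higher, 9.72% at least 2-fold higher and 8.99% at least 2-fold lower. Srgn, the proteoglycan that packs granzymes, had 439 against 293 CPM (log2 0.58, 0.32 to 0.83), and Ctsc, the protease that activates granzymes, 75.7 against 53.9 CPM (log2 0.49, -0.17 to 1.09). The lysosomal membrane protein Lamp1 had 96.9 against 125 CPM and the fusion protein Vamp8 118 against 121 CPM. In CD4 T-like cells the same list had 12 of 14 genes higher (55.8% of all genes) and 6 at least 2-fold higher (9.63% of all genes), with a median of 0.64 against 0.08 over all genes. With the marker-majority gates 11 were higher and 3 at least 2-fold. No shares of all genes are given here for those counts, so they are not read against a background. Ctsc reached 129 against 53.1 CPM (log2 1.28, 0.99 to 1.57).

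Of a list of 5 serpins 4 were tested, all 4 higher, 1 of them at least 2-fold, with a median of 0.50. With the marker-majority gates 3 were higher and 2 at least 2-fold, with a median of 0.97. No shares of all genes are given for those gates, so these counts are not read against a background. Serpinb6a had 45.4 against 21.5 CPM (log2 1.08, 0.18 to 1.88) and Serpinb9, an inhibitor of granzyme B, 24.2 against 14.3 CPM (log2 0.76, -0.52 to 1.84). Serpinb6b and Serpina3g had 5 against 52 and 3 against 30 UMIs, with intervals around 0.

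Gzmc, of the other 6 granzymes, had 376 UMIs in syngeneic and 0 in allogeneic memory-like cells, but 240 of them were in 1 cell and 10 of 607 cells held any. Gzmf had 0 and 1 UMI, and Gzmd, Gzme, Gzmg and Gzmn had none in kept cells. Gzmb and these genes are a family of related sequences, and the treatment of reads shared between them was not given in the sources used here.

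The effector chemokines split. Cxcl10, which draws in Cxcr3-bearing cells, had 40 UMIs in 8 of 62 allogeneic cells (121 CPM), 17 of them in 1 cell, against 6 UMIs in 2 of 607 (1.53 CPM). Xcl1 had 6.06 against 91.7 CPM (log2 -3.92, -6.97 to -2.06) and Ccl4 9.08 against 63.6 CPM (log2 -2.81, -5.10 to -1.25). A single cell held 169 of 359 Xcl1 and 176 of 249 Ccl4 UMIs in the syngeneic class. Ccl3 had 3.03 against 8.18 CPM. Of the 4 chemokines tested 1 was higher and 3 lower, with a median of -2.12 that rests in part on single cells.

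Of 8 death ligands and cytokines 5 were tested, 3 higher and 2 lower, 0 past 2-fold, with a median of 0.36. Ltb, lymphotoxin beta, had 959.8 against 1164 CPM (log2 -0.28, -0.45 to -0.11), Tnfsf10 (the death ligand TRAIL) 21.2 against 12.01 CPM, Il2 24.2 against 12.8 CPM and Tnf 12.1 against 9.46 CPM, the last 3 with intervals that reached 0.

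Transcription factors of effector lymphocytes gave 6 higher and 2 lower of 8 tested, 1 higher by at least 2-fold, with a median of 0.39. Eomes had 87.8 against 145 CPM (log2 -0.73, -1.32 to -0.19), Id2 203 against 136 CPM (log2 0.57, 0.19 to 0.94), Runx3 142 against 141 CPM and Tcf7 194 against 209.5 CPM. Of the 14 effector and NK receptors 9 were tested, 7 higher and 2 lower, 4 higher by at least 2-fold, with a median of 0.76. Klrk1, which encodes the activating receptor NKG2D, had 230.1 against 33.2 CPM (log2 2.79, 2.36 to 3.21), Klrd1 212 against 146 CPM and Il2rb 260.4 against 119.6 CPM (log2 1.12, 0.77 to 1.46), while Cxcr3 had 157 against 201 CPM. Eomes, Tbx21, Il2rb and Cxcr3 are the genes of the memory gate, so their levels in this class are partly set by it.

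Genes whose levels followed the members were ranked by Pearson's r of log2(CPM + 10) with the mean of the 10 genes. Over 18 library-by-class points of at least 20 cells, the 5 most alike of 10251 genes were Hdgfrp3 (0.89), Ifitm10 (0.89), Samd3 (0.88), Crtam (0.87) and Nsg2 (0.87). With the marker-majority gates, 22 points and 10248 genes, they were Cd160 (0.92), Samd3 (0.90), 4930486L24Rik (0.89), Ctla2a (0.89) and Ifitm10 (0.87). Samd3 and Ifitm10 were in both groups. The points come from 2 libraries and share their depth and free RNA. Among the members themselves, Ctsw followed the mean of the other 9 with r 0.85 and Gzmb with r 0.21 under the fixed-threshold gates, and with 0.82 and 0.57 under the marker-majority gates.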

How the data were processed

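The authors deposited raw UMI counts for each library as a sparse matrix with lists of genes and barcodes. The labels' protocols name a Chromium single-cell 3′ v3 kit. The submitters' processing notes name the mm10 build, Seurat 2.3.4, STAR and Cell Ranger 2.2.0. Which version of the kit was used could not be settled from these sources. The selection of barcodes was not given in the sources used here. The counts are whole numbers and were used without normalisation beyond division by the class total (CPM), over 27998 gene entries summed by symbol. Ratios have exact conditional binomial and shares of cells exact Clopper-Pearson 95% intervals, which cover counting error only. A ratio against 0 UMIs is a bound from a floor of 3 UMIs, and no ratio is given where both sides are at or under it. Genes with at least 20 UMIs over both sums count as tested, and 2-fold as past the fold. The ratio and its interval were tested on simulated class sums drawn with counting error only, which the interval assumes. That test cannot cover UMIs clumped in single cells, as seen for Gzma and Gzmb. No doublet caller was run. The fixed-threshold T gates limited B markers only. Cells with Cd3d or Cd3e UMIs plus NK, dendritic, macrophage or neutrophil markers stayed in them. In an alternative of the marker-majority gates, 16 allogeneic and 81 syngeneic barcodes of over 20000 UMIs were left out. For thinned shares, each cell was reduced at random to 2000 UMIs and shallower cells were left out, which took 4 memory-like, 18 naive-like, 17 CD4 T-like and 73 B-like allogeneic cells and 0 syngeneic ones. Gene overlaps come from GENCODE M21 and promoter windows from RefSeq (GRCm38.p6). The members, lists and gates were chosen with earlier results of these data known. Named are all 10 members, up to 4 genes of each list with the highest CPM in memory-like CD8 T cells, and the 5 most alike genes with at least 100 UMIs. Alternatives were other cell filters and gates, limits on depth, other scalings and subtraction of the B-like level, with the marker-majority gates and removal of shared barcodes added after seeing the data. Python 3.11.15, numpy 2.4.6, scipy 1.17.1 and matplotlib 3.10.9 were used.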

Additional observations from a re-analysis of the deposited data

Results flagged for a closer look

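Ccl5 differed between the libraries in opposite directions in the 2 CD8 T cell classes. Its log2 ratio, allogeneic over syngeneic, was 0.79 in memory-like cells and -1.999 in naive-like cells, and the difference between these ratios was not tested. With the marker-majority gates the ratios were 0.91 and -0.95. Without the richest cell of each library these gates gave -1.34 (-1.73 to -0.99) in naive-like and -1.33 (-2.03 to -0.70) in B-like cells. How much of the naive-like ratio is background was not tested. In the fixed-threshold gates 602 of the 1637 syngeneic naive-like UMIs were in 4 cells that the marker-majority gates call dendritic-like.

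Barcodes that did not pass the cell filter, which no comparison uses, held UMIs of these genes above the limit that a count of 0 allows. The 1394 allogeneic barcodes outside the filter held 45 Gzma, 21 Gzmb, 6 Prf1, 102 Nkg7, 66 Ctsw, 8 Cst7 and 128 Ccl5 UMIs. For Gzma this was 61.0 CPM against 67.6 CPM in kept cells, and for Ccl5 174 against 183 CPM. The 10 syngeneic barcodes outside the filter held 6 Gzma, 4 Gzmb, 7 Nkg7 and 5 Cst7 UMIs.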

How the results depend on the processing

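Values are log2 ratios, allogeneic over syngeneic or memory-like over naive-like. The members summed gave -0.29 in CD8 T, 0.27 in memory-like, -0.12 in naive-like, -0.30 in CD4 T and 2.196 in NK-like cells, and 1.502 and 1.12 for memory-like over naive-like in the allogeneic and syngeneic library. Of 83 alternative values of these sums, 40 stayed within the interval, 32 moved past it and 11 changed sign; of 721 values of single members, 584, 113 and 24 did. Other cell filters, median-of-ratios scaling, removal of haemoglobin genes and of shared barcodes moved no sum past its interval. The cause of the changes was not tested.

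With at least 2 T and 0 B marker UMIs the sums were -0.13 (CD8), 0.42 (memory-like), -0.017 (naive-like), -0.13 (CD4) and 0.99 (syngeneic memory-like over naive-like), with Gzma 0.41 in CD8 and 1.31 in memory-like cells and Gzmb -1.69 in CD4 cells. With cells at or above the lowest syngeneic depth they were -0.18 (CD8), -0.023 (naive-like) and -0.73 (CD4). Thinned before gating they were -0.15 (CD8), 0.047 (memory-like), 0.015 (naive-like), 0.62 (CD4), 1.19 (NK), 1.03 and 1.002 (memory-like over naive-like), with Gzma 3.22 in memory-like cells, Ccl5 0.50 in CD4 and -0.21 in NK-like cells, Ctsw -0.10 (allogeneic) and Prf1 -0.74 (syngeneic) for memory-like over naive-like. With the B-like level subtracted they were -0.047 (CD4) and 1.24 (syngeneic memory-like over naive-like). With the memory gate at 1 UMI they were -0.012 (memory-like), 0.95 and 0.85. Without CD8 T cells with a Tyrobp UMI they were 0.011 (CD8), 0.48 (memory-like), 1.36 and 1.03, with Gzma 0.17 and Ccl5 0.064 in CD8 and Gzma 0.71 in memory-like cells. The naive-like ratio between libraries was not computed in that setting, neither for the sum nor for Ccl5.

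Chosen after seeing the data, the marker-majority gates gave 0.020 (CD8), 0.40 (memory-like), 0.24 (naive-like), 0.26 (CD4), 0.78 (NK), 1.17 and 1.004, with Nkg7 0.056 in CD8, Gzma 0.066 in memory-like, Gzmb -0.0072 and Ccl5 0.0904 in CD4 and Ccl5 -0.56 in NK-like cells. Without barcodes over 20000 UMIs these gates gave -0.018 (CD8), 0.22 (naive-like), 0.31 (CD4), 0.78 (NK) and 1.17, with Gzma 0.42 and Nkg7 0.015 in CD8, Gzma 1.05 in memory-like, Ccl5 0.071 in CD4 and -0.56 in NK-like cells. With cells at or above the lowest syngeneic depth they gave 0.13 (CD8), 0.44 (memory-like), 0.36 (naive-like), -0.069 (CD4), 1.48 (NK), 1.08 and 1.004, with Nkg7 0.17 in CD8, Gzma 0.069 in memory-like and Cst7 0.37 in CD4 cells.

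No paired analysis was possible because each group is 1 library. Median-of-ratios scaling gave no NK-like value, since too few genes reached its minimum. Asking for 100 UMIs in place of 20, the share of all genes past 2-fold went from 18.7% to 10.2% in memory-like cells, 14.1% to 7.94% in naive-like cells, 15.1% to 8.80% in CD4 T-like cells, 14.8% to 8.85% in CD8 T cells and 26.2% to 13.6% in NK-like cells. The limits are 1 library per condition, unequal depth, barcode selection and shares of ungated cells, and members seen in few cells.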

Other observations

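Members were also seen outside the classes compared above. T-like cells with neither or both of Cd4 and Cd8 held 26.1% of the syngeneic and 13.3% of the allogeneic Gzmb UMIs by the marker-majority gates, and 30.6% and 14.2% of the Prf1 UMIs in the allogeneic and syngeneic library. The richest syngeneic Gzmb cell, with 54 of 495 UMIs, was one of them.

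Of the CD8 T cells in neither the memory-like nor the naive-like class, thinned, at least 2 of the 10 genes were seen in 41.5% (32.0 to 51.5) in the allogeneic library (106 cells) and in 50.7% (46.7 to 54.8) in the syngeneic library (613 cells). At least 3 genes were seen in 6.60% (2.70 to 13.1) and 15.8% (13.0 to 19.0) of them.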
